A study of Rattus norvegicus with 6 samples.

Results

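The calcitonin gene peptides, the adrenomedullins and their receptors were followed in whole lung of control rats and of rats with bleomycin-induced pulmonary fibrosis (PF). The 9 members are Calca, Calcb, Adm, Adm2, Calcrl, Calcr, Ramp1, Ramp2 and Ramp3, and they were taken from the table of linear RNAs as the rows whose gene name equals one of these symbols. Rows were found for 8 of the 9 members, with 23 transcripts among the 70376 transcripts of the table, and 7 members and 21 transcripts were above 0 in enough samples to be tested. No row carries the name Calcr, the calcitonin receptor, and its level was not analysed here. The whole table holds 31316 genes, of which 29114 were tested.

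The control group was 3 Sprague-Dawley rats given saline into the trachea, and the model group was 3 rats of the same strain given a single dose of bleomycin, 7 mg/kg, by the same route. The rats were 7 weeks old at the start, and lung was taken on day 28. One library of RNA depleted of rRNA was made from each rat, so the replicates are different animals. Bleomycin injures the lung epithelium and the fibrosis that follows is a drug-induced model with injured and spared lung in the same organ. In bulk lung, fewer cells of a type and less RNA per cell cannot be told apart. Model 3 stood apart in genes of heart muscle, with Myh6, the myosin of the atria and the rodent ventricle, at 5.11 FPKM (fragments scaled to transcript length and library) against 0 to 0.0339 in the other 5 lungs. The 6 heart markers summed to 26.0 FPKM in model 3 and to between 6.07 and 10.5 FPKM in control lungs. For Adm, Calcrl and Ramp2 the log2 fold change is given with and without model 3. Most other values are given with model 3 included, and the part of heart tissue in them was not tested.

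These peptides act on the blood vessel wall, airways and nerves. Alternative splicing of Calca gives calcitonin, the thyroid hormone, or calcitonin gene-related peptide (CGRP), a vasodilator of sensory nerves and pulmonary neuroendocrine cells. Calcb encodes a second CGRP, Adm encodes adrenomedullin, a vasodilator that also tightens the endothelial barrier, and Adm2 encodes the related adrenomedullin 2, or intermedin. Calcrl encodes a receptor of the cell surface that signals mainly through Gs and cAMP and that needs a receptor activity-modifying protein (RAMP) as a partner. With Ramp1 it forms the CGRP receptor, and with Ramp2 or Ramp3 it forms adrenomedullin receptors.

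The promoters of the 3 peptide genes that had an entry are shown because the RNA of these ligands ranged from several FPKM for Adm to traces for Calca and Adm2. The sequences are the 250 bases before the RefSeq start site in the assembly GRCr8, read 5′ to 3′ on the strand of the gene, and this assembly was not matched to the coordinates of the expression table. Capitals mark TTATAA in Adm, which holds TATAA on the strand of the gene and again on the opposite strand with an overlap, and TGACG in Calca.
Adm, chr1:174179950-174180199, plus strand: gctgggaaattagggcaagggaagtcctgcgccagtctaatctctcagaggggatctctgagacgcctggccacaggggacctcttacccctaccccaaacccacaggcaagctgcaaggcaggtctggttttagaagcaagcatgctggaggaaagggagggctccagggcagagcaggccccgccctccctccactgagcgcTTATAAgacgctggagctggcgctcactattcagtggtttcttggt
Calca, chr1:178317530-178317779, minus strand: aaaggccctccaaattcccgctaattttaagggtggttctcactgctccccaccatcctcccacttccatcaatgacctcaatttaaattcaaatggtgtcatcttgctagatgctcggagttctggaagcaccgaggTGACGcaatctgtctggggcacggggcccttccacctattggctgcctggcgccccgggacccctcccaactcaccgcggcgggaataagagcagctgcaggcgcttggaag
Adm2, chr7:122272558-122272807, plus strand: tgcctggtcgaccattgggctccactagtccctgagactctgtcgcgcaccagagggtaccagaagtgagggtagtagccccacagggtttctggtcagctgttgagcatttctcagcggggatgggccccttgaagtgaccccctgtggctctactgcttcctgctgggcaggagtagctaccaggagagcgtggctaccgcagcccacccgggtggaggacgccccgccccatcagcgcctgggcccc

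RefSeq promoters were found for 7 of the 9 members, all but Calcb and Ramp2. On both strands, TATAA was found in the promoter of Adm alone among the 7, at 45 to 41 bases before the start, against 24.0% of 33469 rat promoters of the same length. TGACG, a part of the cAMP response element, was found in Calca, at 112 to 108 bases before the start, and in Calcr, against 18.2% of all promoters. The whole element TGACGTCA (1.59% of all promoters), the core of the hypoxia response element ACGTG (16.6%) and the longer TATAAA (12.9%) were found in none of the 7. The shorter forms TGACG and TATAA were searched after the longer ones had given no match. The GC content was 58.8% in Adm, 56.4% in Calca and 64.4% in Adm2, beside a median of 51.2% over all promoters. These letters describe the windows only, and binding to them was not tested.

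FPKM are scaled by the length of the transcript, which allows levels of different genes to be set side by side. The transcripts of a gene were summed. Ramp2 and Calcrl were by far the most abundant members, with means over the 6 lungs of 124.5 and 107.3 FPKM, and they stood at percentiles 99.5 and 99.3 of all genes above 0. Ramp2 was higher than Calcrl in 4 of 6 lungs and their ranges overlapped. Calcrl is here the sum of its transcripts on both strands. Those on the strand of the gene averaged 90.8 FPKM and lay below Ramp2 in every lung. Adm followed at 7.28 FPKM, Ramp1 at 4.28 and Ramp3 at 2.61, with ranges that overlapped between Adm and Ramp1 but not between Calcrl and Adm or between Ramp1 and Ramp3. Calca, at 0.160 FPKM, lay below all of these in every lung. Adm2, at 0.0438, and Calcb, at 0.00814, lay lower still, with ranges that overlapped with that of the next gene in the order.

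**Figure D1:**
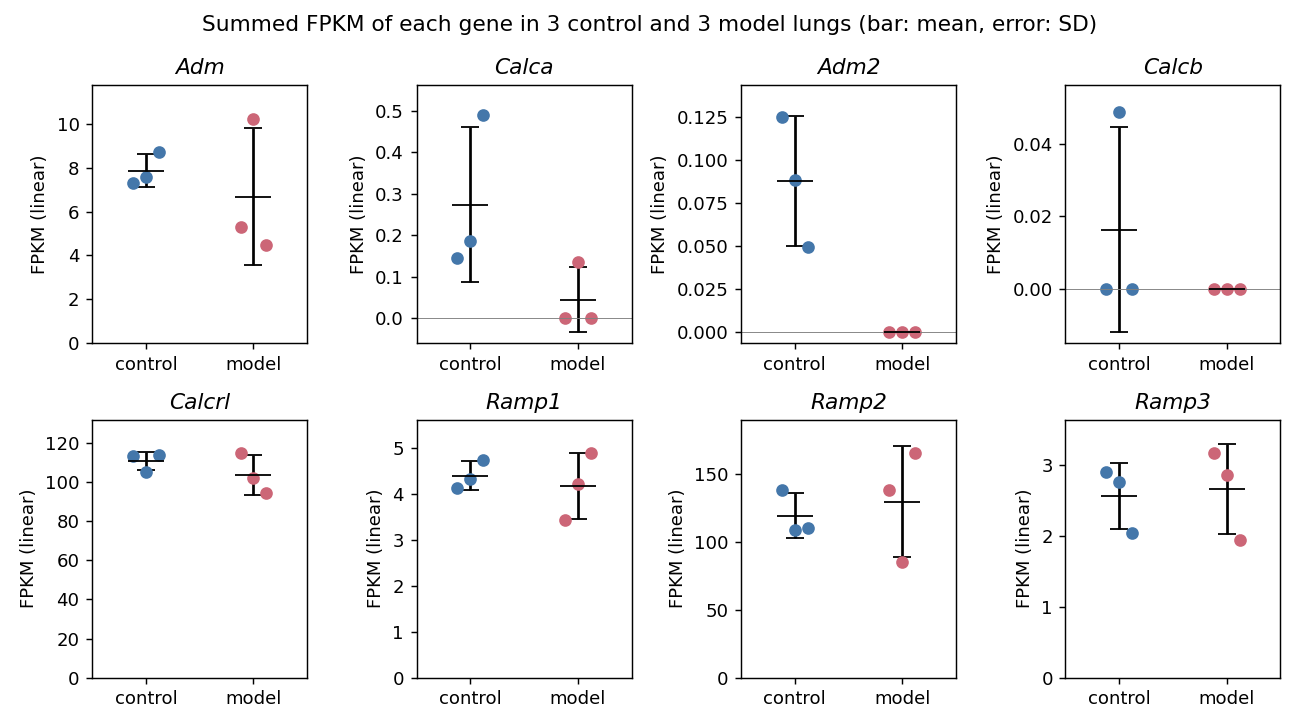
Summed FPKM (linear axis, own scale in each panel) of the 8 members with rows, 1 point per rat, with the group mean as a horizontal bar and the SD as the error bar. The groups overlap in every panel except Calca and Adm2, whose control lungs all lie above the model lungs, at levels below 0.5 FPKM.

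The comparison of the groups asked which of these genes differ between PF model and control lungs. Calls were made by the thresholds of the study (an unadjusted p of at most 0.05 in limma, together with group mean FPKM that differ by 1 or more on the log2 scale) and by a Benjamini-Hochberg adjusted p below 0.05. By the first rule 614 of 29114 genes were called (2.11%), 206 higher (0.708%) and 408 lower (1.4%) in the model group, and 1 of the 7 tested members was called, Adm2, which was lower. By the second rule 5 genes were called (0.0172%) and none of the members, whose adjusted p lay between 0.927 and 0.994. An unadjusted p below 0.05 was reached by 1426 genes (4.90%) and again by 1 member. The split of the calls depended on the scaling and on which transcripts were summed. It was 295 higher and 340 lower as TPM, and 253 and 400 as TPM without small RNAs. Over Ensembl transcripts alone, with 18967 genes tested, it was 250 and 269. Over exonic transcripts on the strand of the gene, with 19485 genes tested, it was 131 and 157. Of the 7 tested members 5 were lower and 2 higher in the model group, with a median log2 fold change of −0.10 beside −0.02 for all genes tested. Groups that did not overlap were seen in 2 members, Calca and Adm2, both lower in the model group, and in 10.8% of all genes (6.50% lower, 4.28% higher). Adm2 passed the filter through the control group alone, and the control lungs of Calca met it by themselves. The counts of the members are therefore not to be read against the shares of all genes.

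**Figure D2:**
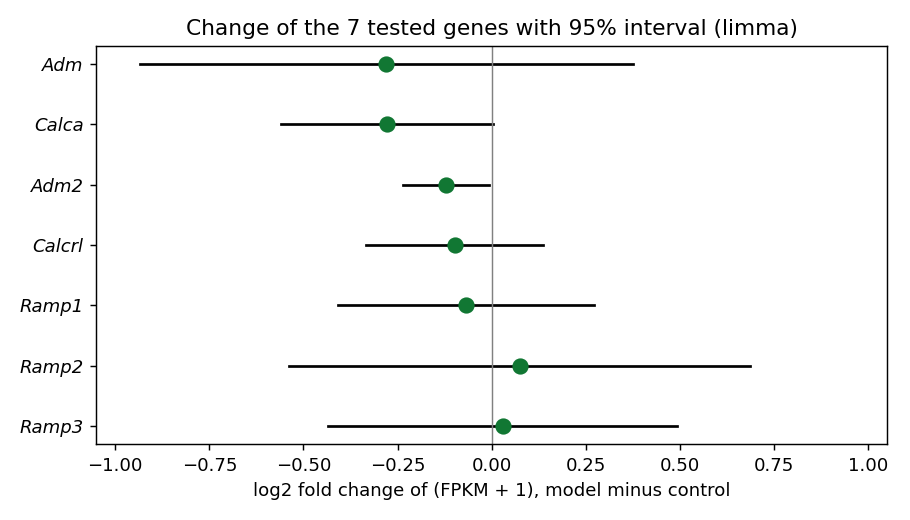
Difference between model and control lungs for the 7 tested members, in log2 of (FPKM + 1), with points for the fitted difference and lines for the 95% interval from limma. The interval of Adm2 lies just below 0, that of Calca ends at 0.0038, and the intervals of the other 5 span 0.

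Among the peptide genes, Adm was the only one with a level above 1 FPKM. Adm (chromosome 1, 175445088 to 175447259, in the coordinates of the files) was at 7.33, 7.60 and 8.73 FPKM in the control lungs and at 5.32, 10.3 and 4.47 FPKM in the model lungs. The model lungs lay on both sides of the control lungs, with model 2 the highest of all 6. The means were 7.89 ± 0.739 and 6.68 ± 3.13 FPKM (SD, n = 3), and the log2 fold change was −0.28 with an SE of 0.27 and a 95% interval from −0.93 to 0.37 (adjusted p 0.935). The value rested on model 2 and model 3, since it was −0.59 with an SE of 0.13 without model 2 (adjusted p 0.835) and −0.07 with an SE of 0.26 without model 3. Each library held between 331 and 751 estimated reads of Adm.

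Adm was divided between an annotated transcript of 4 exons and an assembled one of 2 exons that covers the same 2172 bases of the genome. The annotated form was steady in control lungs, at 4.87, 4.65 and 4.76 FPKM, and was at 2.86, 5.73 and 2.87 FPKM in model lungs. The assembled form, MSTRG.2638.1, was at 2.47, 2.95 and 3.96 FPKM in control lungs and at 2.46, 4.53 and 1.60 FPKM in model lungs. Its share of Adm was 39.3% in control and 42.0% in model lungs on average, a difference within the spread (exact permutation p 0.6, two-sided, where 3 against 3 allows no p below 0.1).

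Calca (chromosome 1, 184184020 to 184188911) was at 0.146, 0.188 and 0.489 FPKM in the control lungs and at 0, 0.135 and 0 FPKM in the model lungs. All control values lay above all model values, but these levels rest on 6.57, 7.79 and 20.2 estimated reads in the control libraries and on 3.97 reads in model 2. The log2 fold change of Calca was −0.28 with an SE of 0.12 and a 95% interval from −0.56 to 0.0038 (p 0.0524, adjusted p 0.927), and the gene passed neither rule. It lay close to the first threshold and passed it in 7 of the alternatives, among them sums over same-strand exonic transcripts (p 0.0461) and the fits without control 1 or without model 2. The means were 0.274 ± 0.188 and 0.0451 ± 0.0782 FPKM (SD, n = 3).

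The 2 annotated transcripts of Calca have the structures of the CGRP and the calcitonin form. The transcript of 5 exons that spans the whole gene, the CGRP form, was at 0.146, 0.188 and 0.286 FPKM in the control lungs and was listed at 0 in all 3 model lungs. Its unadjusted p was 0.0029 and its adjusted p 0.678, between 0.305 and 0.943 under the alternatives, so it was called by the first rule and not by the second. It was above 0 in 3 samples only, the number the filter asks for, and passed through the control group alone. The zeros of the model lungs met the fold threshold by themselves. On log2(FPKM + 1) the log2 fold change of this form was −0.27 with an SE of 0.05. The transcript of 4 exons that ends earlier, the calcitonin form, was at 0.203 FPKM in control 3 and 0.135 FPKM in model 2 and was listed at 0 in the other 4 lungs, which left it untested.

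Adm2 (chromosome 7, 130296897 to 130298644), with a single transcript of 3 exons, was at 0.125, 0.0884 and 0.0495 FPKM in the control lungs and was listed at 0 in all model lungs. The values stand for 5.95, 3.87 and 2.48 estimated reads per control library. Adm2 passed the first rule with an unadjusted p of 0.0411 (adjusted p 0.927), and like the CGRP form it passed the filter through the control group alone. With 0 in all model lungs, the fold threshold was met whatever the control level. The log2 fold change of Adm2 on log2(FPKM + 1) was −0.12 with an SE of 0.05. The pattern of a gene above 0 in every control lung and at 0 in every model lung was seen in 37 genes (0.127%), and the reverse in 40 genes (0.137%). The call was kept when control 3 was left out and was lost when any of the other 5 lungs was left out (p 0.0813 to 0.114). It was also lost without the trend in the variance and with a replicate block, and with a mean of at least 1 FPKM required Adm2 was not tested.

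Calcb (chromosome 1, 184271590 to 184276475) was at 0.0488 FPKM in control 2, from about 2 reads, and was listed at 0 in the other 5 lungs. It was not tested.

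CGRP in the lung is made by pulmonary neuroendocrine cells and by nerve fibres whose cell bodies lie outside the lung. Of 12 neuroendocrine markers 10 had rows, and their summed level was between 3.12 and 5.18 FPKM in control and between 4.52 and 5.23 FPKM in model lungs. None of the 6 tested passed either rule. Ddc, the decarboxylase of amine synthesis, made up most of the sum and was at 3.50 ± 0.972 FPKM in control and 4.04 ± 0.237 FPKM in model lungs (SD, n = 3). Intronic transcripts held most of the Ddc signal, with 0.835 of its mean of 3.77 FPKM in exonic transcripts on its own strand. Chga, the granule protein chromogranin A, was at 0.152, 0.0489 and 0.219 FPKM in control lungs and 0.0244, 0.0354 and 0.0396 FPKM in model lungs, without overlap (adjusted p 0.927). Resp18, a protein of secretory granules, was at 0.208 ± 0.0769 and 0.278 ± 0.142 FPKM. Chgb, Scg2 and Scg3 were listed at 0 in at least 4 of the 6 lungs, and Insm1 and Grp had no row. The part of these cells in the Calca values was not tested.

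Calcitonin is made by C cells of the thyroid, which lies near the trachea. Of 6 thyroid markers 5 had rows, with a summed level of 15.1 to 47.4 FPKM in control and 8.50 to 16.9 FPKM in model lungs, and the highest sum was that of control 3, the lung with the most Calca. There Nkx2-1, a factor that lung epithelium also makes, was at 41.4 FPKM, against 5.01 to 10.8 FPKM in the other 5 lungs. Pax8, a factor of thyroid and kidney, was lower in the model group by the first rule, with 0.102, 0.191 and 0.220 FPKM against 0, 0.101 and 0 FPKM (p 0.0366, adjusted p 0.927). Tshr, the thyrotropin receptor, was at 5.09 ± 2.23 and 3.78 ± 1.43 FPKM. Tg, thyroglobulin, was at 0.637 FPKM in control 3 and between 0.146 and 2.38 FPKM in the other lungs, and Slc5a5, the iodide transporter, was at 0 in control 3. Most of the signal named Tg and Tshr came from intronic transcripts, with 0.0985 of 1.22 FPKM for Tg and 1.94 of 4.44 FPKM for Tshr in exonic transcripts on the strand of the gene, as means over the 6 lungs. The part of thyroid tissue in the Calca values was not tested.

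The receptor gene Calcrl was high in every lung. Its 12 transcripts (chromosome 3, 71743376 to 71846235) summed to 113.2, 105.3 and 113.9 FPKM in the control lungs and to 114.7, 102.1 and 94.3 FPKM in the model lungs. The highest and the lowest of the 6 values were both model lungs, and the groups overlapped. The log2 fold change of Calcrl was −0.10 with an SE of 0.10 and a 95% interval from −0.33 to 0.14 (adjusted p 0.935), and it was −0.03 without model 3. The name covers 8 transcripts on the minus strand, the strand of the gene, 3 on the plus strand and 1 without a strand. The minus-strand transcripts alone summed to 99.2, 92.8 and 101.8 FPKM in control and to 100.6, 76.1 and 74.5 FPKM in model lungs, with a log2 fold change of −0.24 and an SE of 0.13 (adjusted p 0.948). Model 2 and model 3 lay below every control lung in this sum and model 1 lay among them.

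The sum was much steadier than its parts. Over the 6 lungs the coefficient of variation was 7.60% for the sum of Calcrl and between 26.6% and 171.3% for its single transcripts. The transcript with the highest mean, MSTRG.23284.2 with 17 exons, was at 56.3, 0 and 30.3 FPKM in control lungs and at 65.8, 26.1 and 7.43 FPKM in model lungs. MSTRG.23284.1, of 16 exons over almost the same span, was at 1.92, 17.1 and 30.2 FPKM in control and 1.92, 6.74 and 36.8 FPKM in model lungs, and MSTRG.23284.3, of 15 exons, was at 3.91, 25.6 and 8.04 FPKM in control and 1.65, 6.34 and 15.9 FPKM in model lungs. No long form was the highest in all lungs of either group. These forms overlap over almost their whole span. A change of form and a different division of shared reads by the assembly cannot be told apart. The 3 long forms summed to 62.1, 42.7 and 68.6 FPKM in control and 69.3, 39.2 and 60.1 FPKM in model lungs. In control 2, where the form of 17 exons was at 0, the form of 15 exons was at its highest, while in model 2 all 3 long forms lay below their means over the 6 lungs. The only annotated transcript, ENSRNOT00000088170 with 12 exons, was at 5.54, 11.9 and 0.443 FPKM in control lungs and 1.37, 5.20 and 1.01 FPKM in model lungs. Assembled transcripts took 94.5% of Calcrl in control and 97.6% in model lungs on average (exact permutation p 0.7, two-sided).

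The shorter minus-strand forms were MSTRG.23284.7 and MSTRG.23284.4, with 8 exons each, and MSTRG.23284.8, with 3 exons. MSTRG.23284.7 averaged 14.6 ± 0.742 FPKM in control and 10.3 ± 5.17 FPKM in model lungs (SD, n = 3), and model 3 was lowest at 5.04 FPKM. MSTRG.23284.4 was at 12.9, 16.1 and 12.9 FPKM in control and 11.5, 12.3 and 6.30 FPKM in model lungs, where every model lung lay below every control lung (adjusted p 0.945). MSTRG.23284.8 averaged 5.51 ± 2.03 and 4.61 ± 2.93 FPKM. The strandless MSTRG.23279.1, a single exon downstream of the gene, averaged 1.24 ± 0.498 and 0.736 ± 0.0521 FPKM (adjusted p 0.945). None of these was called.

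**Figure D3:**
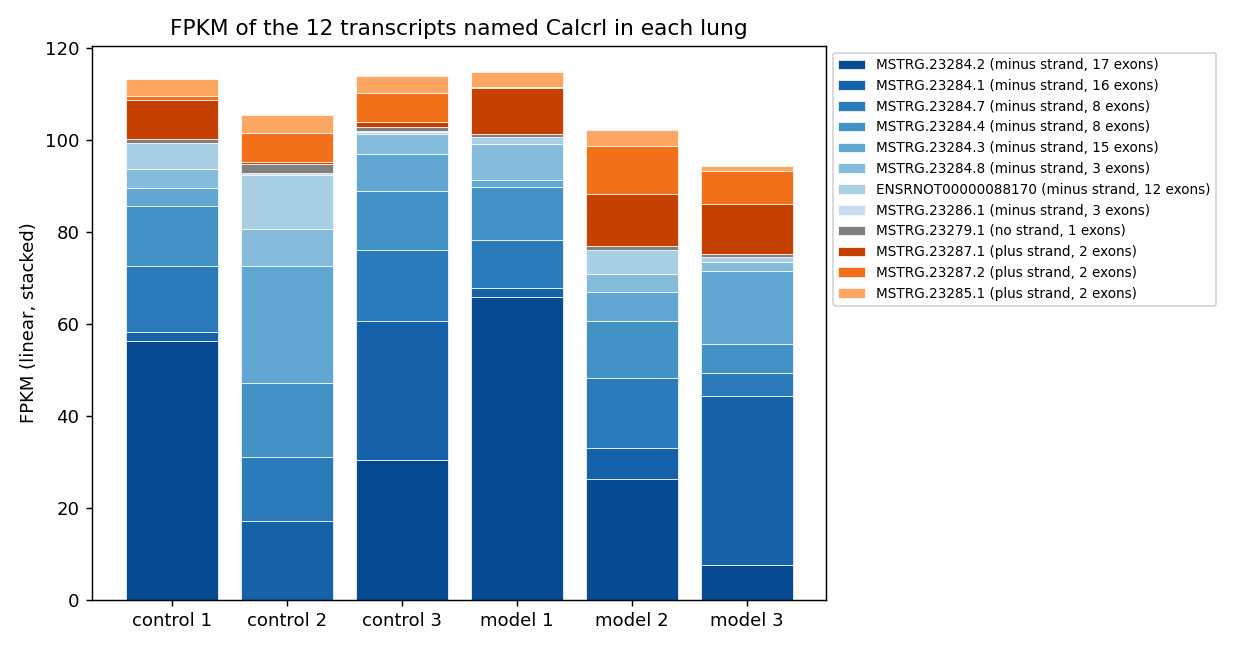
FPKM of the 12 transcripts named Calcrl, stacked for each lung on a linear axis, in blue for the minus strand, orange for the plus strand and grey for the transcript without a strand. The bars reach between 94.3 and 114.7 FPKM while the blue segments change places from lung to lung, and the darkest orange segment, MSTRG.23287.1, is thin in control 2 and control 3.

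On the opposite strand, MSTRG.23287.1 was higher in the model lungs by the first rule. This assembled transcript of 2 exons (chromosome 3, 71793484 to 71813909), which the table classes as antisense to an exon of Calcrl, was at 8.45, 0.612 and 1.09 FPKM in control lungs and at 9.94, 11.4 and 10.8 FPKM in model lungs. Every model lung lay above every control lung, and control 1 lay close to the model lungs. Its log2 fold change was 1.88 with an SE of 0.67 (unadjusted p 0.0324, adjusted p 0.945). Without control 1 the adjusted p was 0.0640, and when any of the other 5 lungs was left out the call by the first rule was lost. A second intronic transcript of the same plus-strand locus, MSTRG.23287.2, was at 0.933, 6.20 and 6.41 FPKM in control and 0.253, 10.3 and 7.29 FPKM in model lungs. The control lungs with little of MSTRG.23287.1 were those with more of MSTRG.23287.2. The third plus-strand transcript, MSTRG.23285.1, was at 3.65, 3.84 and 3.60 FPKM in control and 3.24, 3.53 and 1.04 FPKM in model lungs.

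The plus-strand transcripts took 11.5%, 10.1% and 9.75% of the FPKM named Calcrl in control lungs and 11.7%, 24.7% and 20.2% in model lungs. All model lungs lay above the control lungs, by a narrow margin in model 1, and the exact permutation test gave its smallest possible p of 0.1 (two-sided, 0.9 after adjustment over the 9 shares and ratios compared). The library kit of the labels keeps the strand, whereas the methods of the study name an mRNA-seq preparation kit without saying so, and the strand setting of the assembly is not given in the sources used here. Hence reads from these transcripts and from the introns and exons of Calcrl that they overlap cannot be told apart.

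Over all transcripts the first rule called 1934 of 64867 (2.98%, of which 1.22% higher and 1.76% lower) and 3 of the 21 tested transcripts of the members, namely those of the CGRP form of Calca and of Adm2 and the antisense MSTRG.23287.1. The second rule called 18 transcripts (0.0277%) and none of the members' transcripts. Groups without overlap were seen in 6 of the 21 and in 10.4% of all transcripts (6.29% lower, 4.12% higher). The CGRP form and Adm2 are in both counts, although they passed the filter through the control group alone. Their calls and their lack of overlap were thus tied to how they entered the test. The counts of the members are therefore not to be read against the shares of all transcripts.

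The accessory genes that set the ligand of Calcrl differed between the groups by less than the spread between rats. Ramp2, the partner in the main adrenomedullin receptor (chromosome 10, 89166890 to 89168965), was at 138.4, 109.2 and 110.6 FPKM in the control lungs and at 138.6, 85.0 and 165.5 FPKM in the model lungs. Model 2 was the lowest lung and model 3 the highest, with the control lungs between them or level with model 1. The means were 119.4 ± 16.5 and 129.7 ± 41.0 FPKM (SD, n = 3), with a log2 fold change of 0.07, an SE of 0.25 and a 95% interval from −0.54 to 0.69 (adjusted p 0.987), and the log2 fold change was −0.13 without model 3. Nearly all of it came from the transcript ENSRNOT00000043953, and a second annotated form did not exceed 0.104 FPKM in any lung.

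Ramp1, the partner in the CGRP receptor (chromosome 9, 98313632 to 98364205), was at 4.12, 4.33 and 4.74 FPKM in control lungs and at 3.44, 4.21 and 4.88 FPKM in model lungs. The lowest and the highest values were model lungs, and the log2 fold change was −0.07 with an SE of 0.14 and an interval from −0.41 to 0.27 (adjusted p 0.969). In control 3 the reads were divided between the annotated transcript, at 1.99 FPKM, and the assembled MSTRG.37527.2, at 2.76 FPKM, a form that did not exceed 0.033 FPKM in the other 5 lungs. On Ensembl transcripts alone the log2 fold change of Ramp1 was therefore 0.24, of the opposite sign.

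Ramp3, the other adrenomedullin partner (chromosome 14, 86922223 to 86939719), was at 2.90, 2.76 and 2.04 FPKM in control lungs and at 3.16, 2.86 and 1.94 FPKM in model lungs. The groups covered almost the same range, with a log2 fold change of 0.03, an SE of 0.19 and an interval from −0.43 to 0.49 (adjusted p 0.994). The interval of each gene holds the differences that are compatible with the values of 3 rats a group.

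Ramp2 made up 95.2%, 93.9% and 94.2% of the summed Ramp FPKM in control lungs and 95.5%, 92.3% and 96.0% in model lungs (exact permutation p 0.9, two-sided). Ramp1 made up 3.53% and 3.26% and Ramp3 2.04% and 2.14% on average. The ratio of the summed Ramp FPKM to that of Calcrl was 1.28, 1.10 and 1.03 in control lungs and 1.27, 0.902 and 1.83 in model lungs (exact permutation p 0.7, two-sided). Calcrl is here the sum of all its transcripts, with the assembled and plus-strand ones included. With all Calcrl transcripts counted, model 2 had the lowest and model 3 the highest ratio. The same lungs were at the extremes for Ramp2. Plus-strand transcripts took 24.7% of Calcrl in model 2 and 9.75% in control 3. With the minus-strand transcripts alone, control 3 had the lowest ratio and model 3 the highest. None of the 9 shares and ratios compared had an adjusted p below 0.9. Over the 6 lungs Calcrl and Ramp2, a receptor and its partner in endothelium, had a Pearson correlation of −0.11, given as a description of 6 libraries that also differ in scaling.

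For the 3 most abundant members the genes with the most similar pattern over the 6 lungs were taken from 14319 genes with a mean of at least 1 FPKM, by the Pearson correlation of log2(FPKM + 1). The closest to Ramp2 were Tm9sf2 at 0.996, Cpsf4 at 0.988 and Dctn5 at 0.982. The closest to Calcrl were Cacna2d1 at 0.996, LOC103689922 at 0.994 and Tmsb4x at 0.992. The closest to Adm were Snrnp70 at 0.988, Sgf29 at 0.986 and Parp9 at 0.985. With so many genes and 6 libraries such values are a description only.

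The genes around the receptor were read from 3 lists of 50 genes in all, of which 48 were tested. None passed either rule, 2 had an unadjusted p of at most 0.05, and the smallest adjusted p was 0.927. On the list of genes that process or clear the peptides, assist the receptors or encode a related peptide, 11 were tested. Of these, 5 were higher and 6 lower in model lungs, with a median log2 fold change of −0.03. Furin, a protease that cuts peptide precursors, was at 0.0640, 5.13 and 2.96 FPKM in control lungs and 6.49, 5.32 and 8.87 FPKM in model lungs. Its groups did not overlap, its log2 fold change was 1.39 with an SE of 0.63 (adjusted p 0.927), and it passed the first rule only when control 2 was left out. Groups without overlap were also seen in Arrb2, Pde3a, Hif1a, Pfkfb3 and Ndrg1, among others of these lists, and in 10.8% of all genes tested. Cpe, the carboxypeptidase of peptide maturation, was at 1.43 ± 0.316 and 2.55 ± 1.67 FPKM (SD, n = 3). Gpr182, a receptor long listed among those for adrenomedullin, was at 29.9 ± 2.90 and 27.4 ± 2.93 FPKM.

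Of 24 tested genes of Gs and cAMP signalling, 9 were higher and 15 lower, with a median of −0.04. Arrb2, an arrestin that takes receptors off the surface, had the smallest p, at 6.82 ± 0.287 FPKM in control and 8.75 ± 0.998 FPKM in model lungs (SD, n = 3), with a log2 fold change of 0.31 and an SE of 0.11 (adjusted p 0.927). Crem, a factor induced by cAMP, was at 10.7 ± 1.41 and 8.36 ± 1.52 FPKM. Pde3a, a phosphodiesterase that degrades cAMP, was at 94.8 ± 6.81 and 82.7 ± 5.03 FPKM. For both, most of the signal lay outside exonic transcripts on the strand of the gene, which held 2.74 of 9.55 FPKM for Crem and 24.0 of 88.7 FPKM for Pde3a.

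Adm is known as a target of the hypoxia response. Of 13 genes of that response 6 were higher and 7 lower, with a median of −0.01. Hif1a, the factor itself, was at 14.1 ± 0.375 and 12.1 ± 0.867 FPKM, a log2 fold change of −0.21 with an SE of 0.08 (unadjusted p 0.0365, adjusted p 0.927). Pfkfb3, a regulator of glycolysis, was at 8.55 ± 1.06 and 10.1 ± 0.603 FPKM, and Ndrg1, a stress response gene, at 9.31 ± 0.201 and 10.6 ± 0.947 FPKM.

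**Figure D4:**
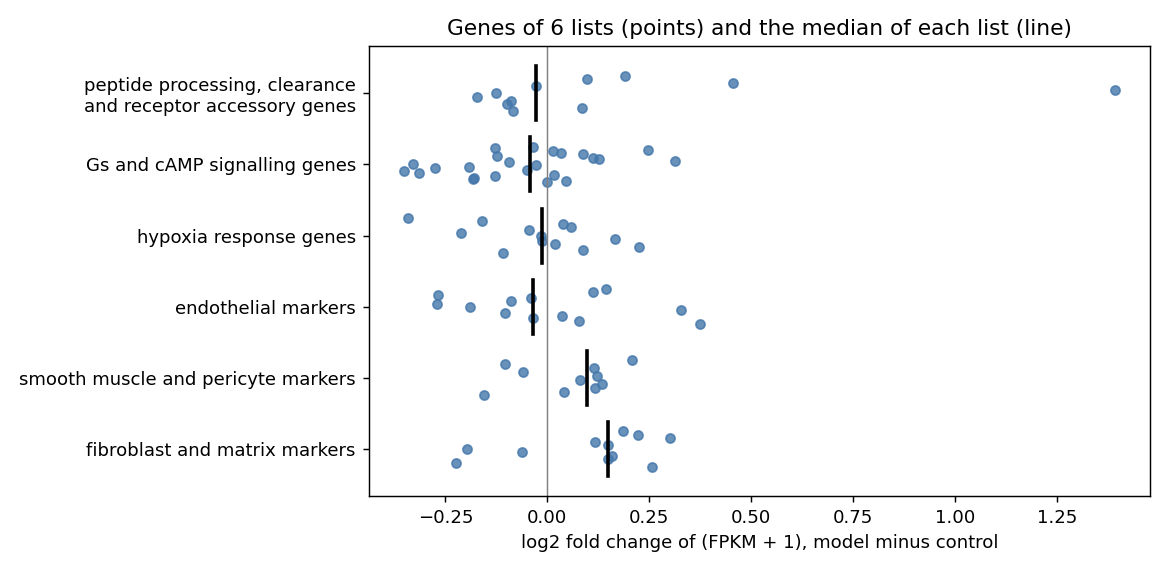
Log2 fold change of (FPKM + 1) between model and control lungs for the tested genes of 6 lists (points) and the median of each list (vertical bar). The medians lie between −0.04 and 0.15, and the point farthest to the right is Furin at 1.39.

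Calcrl and Ramp2 are known for high expression in endothelium, and its markers were abundant. The 13 endothelial markers with rows summed to between 696 and 899 FPKM in control and between 741 and 848 FPKM in model lungs, and none passed either rule (median log2 fold change −0.03). Pecam1 and Cldn5 had no row. Car4, a carbonic anhydrase of lung capillaries, was at 22.7 ± 1.04 and 18.9 ± 3.43 FPKM, Emcn, a surface sialomucin, at 30.7 ± 2.31 and 26.8 ± 3.41 FPKM, and Gpihbp1, which anchors lipoprotein lipase, at 12.6 ± 4.56 and 15.7 ± 2.95 FPKM. Of the 6 lymphatic markers, which mark another site of Calcrl, none passed (median 0.05), with sums of 52.7 to 64.2 and 56.8 to 68.6 FPKM. Neither did any of the 10 smooth muscle and pericyte markers (median 0.10), with sums of 179 to 218 and 171 to 250 FPKM. The part of these cells in the receptor values was not tested.

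The lungs were checked with markers of lung epithelium, of fibrosis and of other cells. The 8 epithelial markers with rows summed to between 9786 and 11488 FPKM in control and between 9045 and 11788 FPKM in model lungs, and none passed (median 0.09). None of the 11 fibroblast and matrix markers passed, with 8 higher and 3 lower in model lungs (median 0.15), although their sums did not overlap, with 454 to 513 FPKM in control and 528 to 626 FPKM in model lungs. Col3a1, the collagen III chain, was higher in every model lung than in any control lung. It was at 168.5 ± 13.1 and 208.3 ± 22.3 FPKM (SD, n = 3), a log2 fold change of 0.30 with an SE of 0.12 (adjusted p 0.927). Lox, the enzyme that cross-links collagen, was lower in every model lung than in any control lung, at 16.3 ± 1.03 and 14.1 ± 1.17 FPKM, a log2 fold change of −0.20 with an SE of 0.09 (adjusted p 0.927). Col1a1, a collagen I chain, was at 63.0 ± 3.18 and 72.4 ± 12.2 FPKM. Of 6 markers of heart muscle Nppa, the atrial natriuretic peptide, was higher in the model group by the first rule, with 0.107, 0 and 0 FPKM against 0.167, 0.154 and 0.150 FPKM (adjusted p 0.927). The macrophage and leukocyte markers (median −0.05), the thymus and lymph node markers (median −0.08) and the blood cell markers (median 0.13) held no called gene, with sums of 91.2 to 106.3 and 78.9 to 103.6 FPKM, 15.5 to 25.6 and 18.4 to 23.6 FPKM, and 2051 to 2774 and 2323 to 3618 FPKM in control and model lungs.

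Among 5216 circular RNAs only 3 came from a member, all from Calcrl, with 4 back-splice reads in total. CircRNA838, which joins 7 exons (chromosome 3, 71788186 to 71800225), had 2 reads in control 1. CircRNA3255, of 8 exons, had 1 read in model 1 and the intronic ciRNA190 had 1 read in control 3. With library totals between 2037 and 2964 back-splice reads these counts are too few for a test, for which 10 reads were required.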

How the data were processed

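Total RNA from the lungs of 3 control and 3 model rats was depleted of rRNA and sequenced, per the labels. The authors mapped and assembled the reads (the labels name HISAT2, StringTie and TopHat, without versions) and deposited FPKM per transcript together with the mean per-base coverage, a signal not scaled for depth. They also deposited counts of back-splice reads for circRNAs, with a normalised signal (SRPBM) that was not used. The genome build is not given in the sources used here. All 24 measurement columns were assigned to samples by name.

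FPKM were summed over the transcripts with the same gene name. Genes without a name were kept by their identifier. Reads were estimated as coverage times length divided by 150 bases, which gave 35778631 to 41112682 per library. Copies of small RNAs took 34.2% to 46.4% of the summed FPKM of a library, a share that enters the scaling of TPM. None of 12 genes used by every cell was listed at 0. Genes and transcripts above 0 in at least 3 of the 6 samples were compared with limma 3.58.1 (R 4.3.3) on log2(FPKM + 1), with a trend in the variance and two-sided p-values adjusted by Benjamini-Hochberg over the whole table. Fold changes on this scale understate those of low genes. For shares, an exact permutation test over the 20 regroupings was used. The fit was tested on simulated data. Tables were handled with Python 3.11.15 and pandas 2.3.3, and figures were drawn with matplotlib 3.10.9.

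The members and lists were chosen with earlier results of these data known. The named features are all members, their transcripts with a mean of at least 0.1 FPKM, called genes of each list with up to 3 more of the smallest p, and the 3 genes most like each of the 3 highest members. Tg, Slc5a5, Myh6 and untested neuroendocrine genes were picked with their values in view. Single values of 1 listed gene are not reported here. Alternatives were a pseudocount of 0.1 FPKM, no filter, a mean of at least 1 FPKM, no variance trend, a replicate block, sums weighted by length, same-strand exonic or Ensembl transcripts only, TPM with and without small RNAs, and leaving out each rat.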

Additional observations from a re-analysis of the deposited data

How the results depend on the processing

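No member passed an adjusted p of 0.05 under any alternative run. Calca, Adm, Adm2 and Calcrl were lower in model lungs under each alternative in which they were tested (Calca and Adm2 were not tested with a mean of at least 1 FPKM). For Adm2, listed at 0 in every model lung, no alternative could reverse this direction. For Calca, whose groups did not overlap, leaving out a rat could not reverse it either. Without 1 rat the log2 fold change of Adm ranged from −0.59 to −0.072, that of Calca from −0.35 to −0.16 and that of Calcrl from −0.17 to −0.033. The direction of Ramp1, Ramp2 and Ramp3 was not fixed: when 1 rat was left out, the log2 fold change ranged from −0.17 to 0.038 for Ramp1, from −0.13 to 0.35 for Ramp2 and from −0.082 to 0.18 for Ramp3, and it was 0.24 for Ramp1 on Ensembl transcripts alone. The difference in share of the summed Ramp FPKM ranged from −0.933 to 0.169 points for Ramp1, from −0.544 to 1.31 for Ramp2 and from −0.382 to 0.608 for Ramp3, and was 0.485 for Ramp1 and −0.574 for Ramp2 on Ensembl transcripts. The difference in ratio to Calcrl ranged from −0.0556 to 0.407 for the summed Ramp genes and from −0.0560 to 0.405 for Ramp2. On Ensembl transcripts the difference for Ramp2 was −0.615, but there Calcrl was at only 0.443 to 11.9 FPKM. The ratios are then far larger, and this difference cannot be set beside the range above. The assembled share ranged from −0.0509 to 5.90 points for Adm and from −28.9 to 0.146 for Ramp1. The cause of these changes was not tested.

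By p and fold the member genes numbered 1, with 2 at a pseudocount of 0.1 FPKM, without a filter, with sums weighted by length, over same-strand exonic transcripts and as TPM without small RNAs, where Calca joined Adm2. They numbered 0 with a mean of at least 1 FPKM and without the variance trend, and 0 to 1 when 1 rat was left out, the 1 being Adm2 without control 3 and Calca without control 1 or model 2. The 3 member transcripts numbered 1 with a mean of at least 1 FPKM and 1 to 2 without 1 rat. The genes of the 3 pathway lists numbered 1 on Ensembl transcripts alone (Prkar1a) and 0 to 1 without 1 rat. The 2 marker genes numbered 0 with a mean of at least 1 FPKM or without the variance trend, and 0 to 3 without 1 rat, with 0 without control 3, model 1 or model 3.

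All genes past these thresholds numbered 614, with 278 at a mean of at least 1 FPKM, where fewer genes were tested, and 288 over same-strand exonic transcripts. All transcripts numbered 1934, with 1066 at a mean of at least 1 FPKM. By adjusted p the 5 genes became 10 at a pseudocount of 0.1 FPKM, 2 at a mean of at least 1 FPKM, 2 over same-strand exonic transcripts and 0 to 2 without 1 rat. The 18 transcripts became 36 at that pseudocount, 11 without a filter and 0 to 19 without 1 rat.

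The labels number the rats alike in both groups and do not say whether the numbers pair them. The deviations of same-numbered lungs correlated at 0.07, 0.06 and −0.04, beside a mean of −0.01 for differing numbers. With 3 lungs a group these values cannot decide whether the numbers pair the samples. With the replicate block, 0 member genes and 1 marker gene passed the thresholds, and 0 genes and 0 transcripts had an adjusted p below 0.05. With the block over same-strand exonic transcripts, an alternative added after the data were seen, 310 genes and 0 member genes passed the thresholds and 0 genes had an adjusted p below 0.05. Calca, Calcb and Adm2 rest on 20.2 estimated reads or fewer per library, and 3 rats a group limit all intervals.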
